A study of Mus musculus with 16 samples.

Results

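The genes examined here were 31 genes of cholesterol and fatty acid synthesis, read in single light zone (LZ) germinal center (GC) B cells. They were chosen by symbol among the 56691 genes of the count matrix, each symbol matched 1 entry, and they comprise 7 genes of the mevalonate pathway, 11 of the sterol branch, 5 that regulate or transport sterols and 8 of fatty acid synthesis. The cells were sorted into plates from the popliteal lymph nodes of 8 male C57BL/6J or B6.SJL hosts, which were primed with ovalbumin at several weeks of age and later boosted with NP-conjugated ovalbumin. Each host had received a mixture of drug-resistant B1-8hi BTKC481S and drug-sensitive B1-8hi BTKWT B cells. B1-8hi is a knock-in heavy chain with high affinity for the hapten NP, and the C481S change keeps the kinase BTK active in the presence of its inhibitor. The inhibitor, acalabrutinib, was given by mouth in repeated doses in the hours before sorting to 5 hosts (A7, A8, A10, A11 and A12), and vehicle alone to 3 (V5, V7 and V9). The labels list 16 samples, a genotype in a host each. Cells are named by host, plate and well without a genotype, so both genotypes of a host were pooled and the host was the replicate. The cells came from 2 independent experiments, and the sources used here do not assign hosts to them, so the experiment could not enter any fit.

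Cells build cholesterol from acetyl-CoA through the mevalonate pathway, which ends in farnesyl diphosphate, and the sterol branch, which makes squalene and converts lanosterol to cholesterol. Fatty acids are made from the same acetyl-CoA by carboxylation, chain assembly, elongation and desaturation. The transcription factors SREBP-1 and SREBP-2, the products of *Srebf1* and *Srebf2*, activate many genes of both routes. They are carried from the endoplasmic reticulum by the escort protein SCAP when sterols are low and are held there with SCAP by INSIG1 when sterols are high. B cells that enter division need new membrane, and lipid synthesis is a known part of B cell activation.

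The matrix held 637 cells, 381 from acalabrutinib and 256 from vehicle hosts, with 45 to 130 cells a host. Cells had a median of 789357 counts and 3989 genes. From the phase genes of Seurat, 255 cells were called G1, 223 S and 159 G2/M, and S and G2/M cells together are called cycling. Their median depth was higher, at 872692 counts against 687213 in G1 cells. Shares of cells with a count were therefore compared between kinds of cell after each cell was thinned to 459128 counts, which left out 64 cells. The label of GC B cells was checked against 8 B cell markers, all with counts, whose summed level was 7142 to 10166 CPM (counts scaled to the total of the summed cells) in the hosts. The summed level of 8 T cell markers was 173 to 408 CPM and that of 8 macrophage markers 22.1 to 36.3 CPM, with *Itgam* at 0.

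The transcripts of the synthesis genes were sparse in single cells. Over the full counts of all 637 cells, without thinning, a cell held counts of 8.19 of the 31 genes on average and 2 cells held none. The shares in this paragraph are also of full counts. *Srebf2* was found in 76.5% of cells (95% exact binomial interval 73.0 to 79.7%), *Insig1* in 57.1% (53.2 to 61.0%), *Scd1* in 55.1% (51.1 to 59.0%) and *Acly* in 51.5% (47.5 to 55.4%), which were the 4 genes found in over 50% of cells. At the other end were *Fdps*, the synthase of farnesyl diphosphate, at 5.65% and *Tm7sf2*, a sterol reductase, at 5.49%. The intervals cover counting error only. Where a gene was found it mostly had many counts, with a median of 411 for *Srebf2* and 431.5 for *Acly*, but *Dhcr7*, the last reductase of the sterol branch, had a median of 2 counts, *Fdps* of 4 and *Nsdhl* of 6.5.

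Summed per host, the levels of some genes varied little and those of others widely. The level of *Srebf2* ranged from 349.6 to 494.9 CPM, that of *Elovl1*, an elongase of very long saturated chains, from 88.5 to 136 CPM and that of *Acly*, which makes cytosolic acetyl-CoA from citrate, from 205 to 333 CPM. The highest host was therefore 1.42, 1.54 and 1.62 times the lowest. For *Scd1*, a desaturase that makes monounsaturated fatty acids, the range was 68.7 to 310.5 CPM, or 4.52 times, and for *Stard4*, which carries sterol between membranes, 11.9 to 110 CPM, or 9.27 times. Over the hosts the mevalonate genes summed to 388 ± 96.2 CPM, the sterol branch to 739 ± 184 CPM, the regulators to 787 ± 100.2 CPM and the fatty acid genes to 969 ± 167 CPM (SD, n = 8). Counts include introns and were not divided by length, so levels were compared between hosts and cells and not between genes. In the plot of levels by host, on the scale of CPM + 1, the widest ranges are those of *Mvd*, *Mvk*, *Tm7sf2*, *Elovl6* and *Lss*. Each of these was found in at most 11.3% of cells at full counts. On that scale *Elovl5*, at 13.4 to 133 CPM, and *Stard4* ranged more widely than *Fdps*, at 0.0132 to 7.25 CPM. *Hsd17b7*, a sterol reductase found in 7.85% of cells, differed 2.47 times between hosts.

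**Figure D1:**
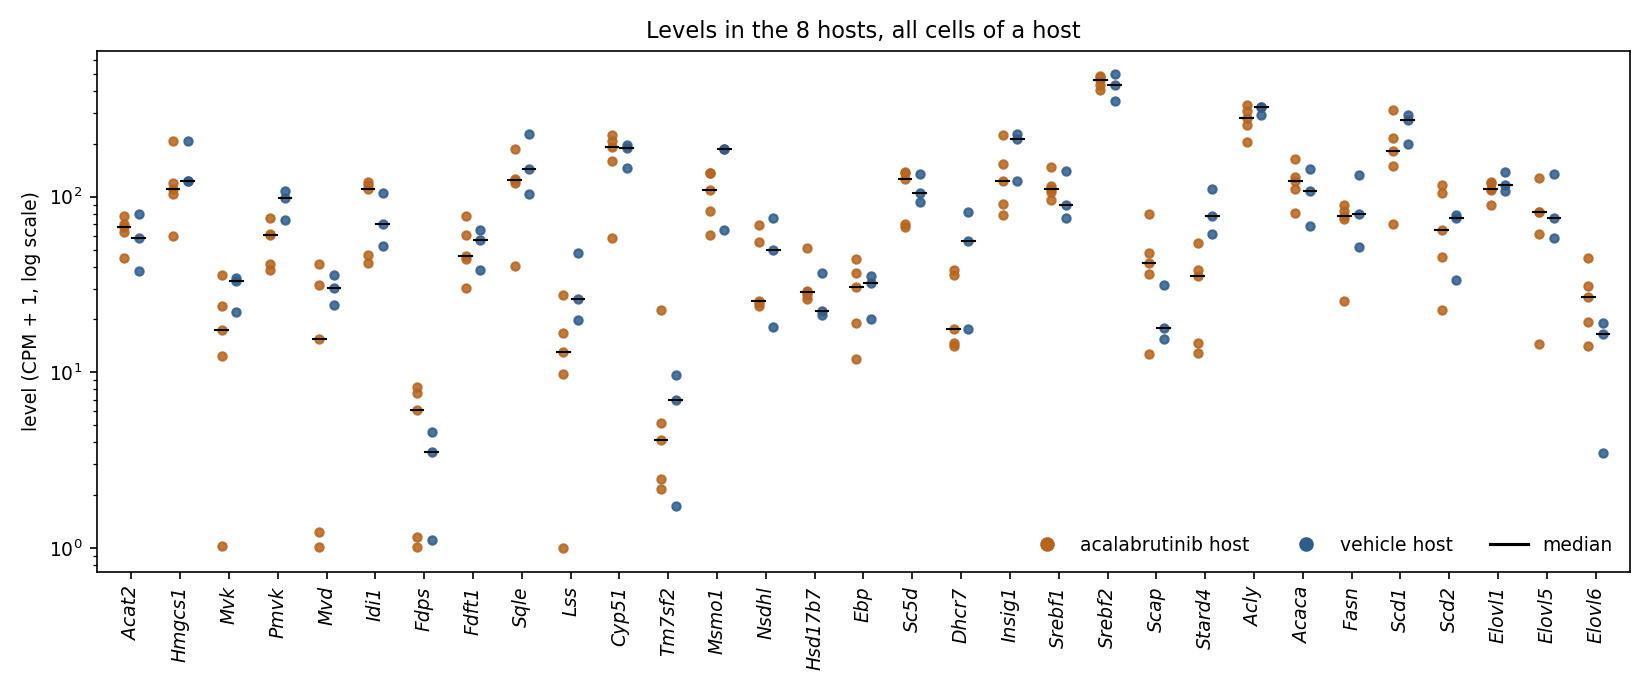
Level of each of the 31 genes in the 8 hosts, as CPM + 1 on a log scale, with 1 point a host, acalabrutinib hosts in brown and vehicle hosts in blue, and a bar at the median of each group. *Srebf2* lies between 349.6 and 494.9 CPM in every host, while *Mvk*, *Mvd*, *Fdps* and *Lss* come close to 0 CPM in at least 1 host.

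The first comparison asked whether cycling cells differ from G1 cells of the same host. *Scd1* was the only gene of the 30 tested that passed the threshold, and it was lower in cycling cells. In G1 cells its level was 95.5 CPM in A7, 186 in A8, 464 in A10, 176 in A11, 299 in A12, 340 in V5, 402 in V7 and 243 in V9. In cycling cells it was 41.2 CPM in A7, 174 in A8, 241 in A10, 137 in A11, 174 in A12, 245 in V5, 213 in V7 and 180 in V9. *Scd1* was lower in the cycling cells of all 8 hosts, with the smallest difference on the log2 scale in A8 and the largest in A7, and both ranges overlapped because the hosts differed from each other. The edgeR quasi-likelihood test with host as a block gave a log2 fold change of -0.69 ± 0.14 (SE, 8 hosts), which is a level of 0.618 times that of G1 cells, with a Benjamini-Hochberg adjusted p of 0.0253. Of all 12651 genes tested 3.79% were called in either direction and 1.29% were called lower, and the share of the synthesis genes, 1 of 30, is near that.

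The share of cells with *Scd1* hardly moved with the lower level. After thinning, 54.1% of G1 and 55.8% of cycling cells had a count of *Scd1*, and the share was higher in the cycling cells of 4 of 8 hosts. Over full counts, without thinning, the median level among the cells with a count was 392 CPM in G1 and 213 CPM in cycling cells. Within single plates with at least 5 cells of each state, the level of *Scd1* was lower in the cycling cells of 12 of 14 plates, with log2 differences from -1.29 to 0.96. The exceptions were 1 plate each of A8 and V5. The mean over plates was -0.52.

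The call on *Scd1* was a weak one. It was lost at an adjusted p of 0.364 without the host block, of 0.112 without the filter on low counts and of 0.0504 to 0.0764 when A7, A10, A12, V5, V7 or V9 was left out, while the log2 fold change stayed between -0.76 and -0.60 with each host left out in turn. It was also lost when the cells with the most counts of cell cycle genes were set against those with the fewest, where the log2 fold change was -0.42 and the adjusted p 0.168. B cell markers moved with it: 6 of the 8 were called lower in cycling cells, and their summed level was 8449 to 11731 CPM in the G1 cells of the hosts and 6592 to 8427 CPM in their cycling cells, with none of the 8 at 0. Zone markers moved in the same comparison. Of 6 light zone markers 2 were called lower in cycling cells, *Cd83* at -0.88 ± 0.12 and *Cd86* at -0.83 ± 0.17 (edgeR, adjusted p = 0.00329 and 0.0266), and the summed level of the 6 was 2671 to 3649 CPM in G1 and 1384 to 3018 CPM in cycling cells. The 1 light zone marker above 0 went the other way. Of 5 dark zone markers 2 were called higher, *Polh* at 2.79 ± 0.29 and *Aurka* at 10.5 ± 1.80 (edgeR, adjusted p = 0.000725 and 0.00992). *Foxo1*, also of that list, was below 0, at -0.31 ± 0.08 (edgeR, adjusted p = 0.0651). The summed level of the 5 was 662 to 1189 CPM in G1 and 943 to 1382 CPM in cycling cells. *Aurka* and *Ccnb2* of this list are themselves phase genes, so the calling of phases favours a rise of both and of the sum. None of the markers of either list was at 0. The part of the B cell and zone markers in the difference of *Scd1* was not tested.

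Of the regulators, *Srebf2* pointed the same way as *Scd1* and did not pass the threshold. Its level in G1 cells was 525 CPM in A7, 590 in A8, 522 in A10, 474 in A11, 459 in A12, 349.7 in V5, 539 in V7 and 455 in V9. In cycling cells it was 329.6 CPM in A7, 314 in A8, 471 in A10, 479 in A11, 374 in A12, 349.5 in V5, 465 in V7 and 420.4 in V9. The level was lower in cycling cells of 7 of 8 hosts, by more than 0.5 on the log2 scale in A7 and A8 and by almost nothing in V5. The log2 fold change was -0.33 ± 0.11 (edgeR, adjusted p = 0.170), and DESeq2, run as an alternative, gave -0.37 with an adjusted p of 0.00994. The difference was lower in 10 of 14 plates.

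*Srebf1*, which encodes the factor that chiefly serves fatty acid genes, varied more than it differed. In G1 cells it stood at 120.2 CPM in A7, 61.2 in A8, 73.4 in A10, 152 in A11, 83.8 in A12, 24.5 in V5, 137 in V7 and 99.7 in V9. In cycling cells it stood at 89.3 CPM in A7, 173 in A8, 104 in A10, 143 in A11, 123 in A12, 114 in V5, 142 in V7 and 65.3 in V9. It was higher in cycling cells of 5 hosts and lower in 3, with a log2 fold change of 0.40 ± 0.33 (edgeR, adjusted p = 0.718).

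*Scap*, the escort, was the least even of the regulators. Its level in G1 cells was 23.0 CPM in A7, 45.6 in A8, 27.5 in A10, 14.0 in A11, 21.0 in A12, 46.1 in V5, 37.5 in V7 and 20.5 in V9. In cycling cells it was 0.151 CPM in A7, 35.7 in A8, 102 in A10, 44.3 in A11, 59.0 in A12, 1.45 in V5, 3.05 in V7 and 34.0 in V9. It was higher in 4 hosts and lower in 4, and the log2 fold change of -0.76 ± 1.31 (edgeR, adjusted p = 0.901) is well within that spread.

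*Insig1*, whose protein retains SCAP and which is itself a target of the SREBP factors, was found in more cycling than G1 cells. After thinning, the share of G1 cells with a count was 28.6% in A7, 25.0% in A8, 41.2% in A10, 42.1% in A11, 32.1% in A12, 62.5% in V5, 60.9% in V7 and 37.5% in V9. In cycling cells it was 80.0% in A7, 48.5% in A8, 86.7% in A10, 66.7% in A11, 60.0% in A12, 87.9% in V5, 72.4% in V7 and 58.0% in V9. The share was higher in cycling cells of all 8 hosts, and over all cells it was 39.1% in G1 and 66.6% in cycling cells. Differences at least as large as these 27.5 percentage points were found for 2.79% of the 12651 genes. These include phase genes and genes found in few or nearly all cells, and no comparison with genes of a like share was made. The summed level did not pass the test: it was 83.9 CPM in A7, 51.9 in A8, 218 in A10, 114 in A11, 138 in A12, 212 in V5, 161 in V7 and 118 in V9 in G1 cells, and 223 CPM in A7, 106 in A8, 225 in A10, 124 in A11, 66.8 in A12, 231 in V5, 247 in V7 and 124 in V9 in cycling cells. It was higher in 7 hosts and lower in A12, with a log2 fold change of 0.26 ± 0.26 (edgeR, adjusted p = 0.781). Among cells with a count of *Insig1*, also over full counts, the median level was 84.5 CPM in G1 and 71.5 CPM in cycling cells.

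**Figure D2:**
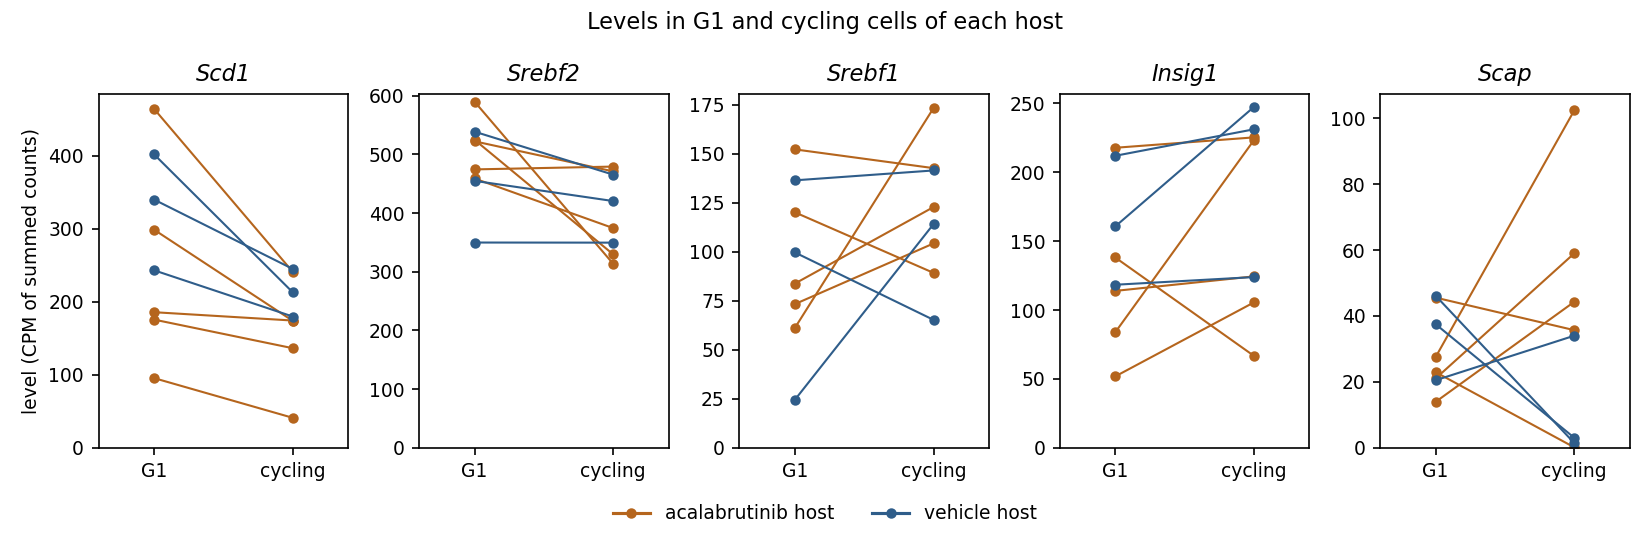
Level (CPM of counts summed per host, linear axes from 0) of *Scd1*, *Srebf2*, *Srebf1*, *Insig1* and *Scap* in the G1 and cycling cells of each host, joined by a line, with acalabrutinib hosts in brown and vehicle hosts in blue. All 8 lines of *Scd1* and 7 of 8 lines of *Srebf2* go down, while the lines of *Srebf1*, *Insig1* and *Scap* go both ways.

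The other synthesis genes did not pass the threshold between cycling and G1 cells. At an unadjusted p below 0.05 there were 3 of 30 (*Scd1*, *Srebf2* and *Idi1*), beside 13.8% of all genes. Of the 6 mevalonate genes tested, 5 had a value above 0, with a median of 0.36 on the log2 scale. *Idi1*, the isomerase of isopentenyl diphosphate, was at 0.59 ± 0.24 (edgeR, unadjusted p = 0.0356, adjusted p = 0.305) and *Hmgcs1*, which starts the pathway from acetoacetyl-CoA, at 0.13 ± 0.25. *Fdps* was too low to be tested. In the sterol branch 9 of 11 genes had a value above 0, with a median of 0.16, and *Cyp51*, which removes a methyl group from lanosterol, was at 0.02 ± 0.31. In fatty acid synthesis 5 of 8 were above 0, with a median of 0.06. There *Elovl5*, which elongates polyunsaturated chains, was at 1.26 ± 0.59 (edgeR, adjusted p = 0.383) and *Fasn*, the fatty acid synthase, at 0.08 ± 0.31. Over the 30 genes the median was 0.16 and over all genes tested 0.11. The median of all genes was -0.090 without the host block, where that of the synthesis genes was 0.16. Between the cells with the most and those with the fewest counts of cell cycle genes, the median of the synthesis genes was 0.35. There 19 of 30 were above 0, and the median of all genes was 0.082.

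Cycling cells held counts of more of the synthesis genes than G1 cells did. After thinning, a cycling cell had counts of 8.86 of the 31 genes and a G1 cell of 6.59, a ratio of 1.35, while the number of all genes with a count was 3945 and 3270, a ratio of 1.21. The order held in all 8 hosts. The number of synthesis genes a cell was lowest in A8, at 4.73 in G1 and 6.33 in cycling cells, and highest in V5 for G1 cells, at 7.94, and in A10 for cycling cells, at 10.5. The summed level of the 31 genes was 2873 ± 418 CPM in G1 and 2880 ± 510 CPM in cycling cells (SD, n = 8). Of the 30 genes tested, 28 were found in a larger share of cycling cells, the exceptions being *Dhcr7* and *Nsdhl*, against 74.4% of all genes. Among cells with a count, the median thinned count was lower in cycling cells for 22 of the 30, against 59.0% of all genes. Besides *Insig1*, the share was higher in cycling cells of every host for *Acat2*, *Elovl5* and *Acly*. That is 4 of 30 genes, and 11.6% of all genes meet the same rule.

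**Figure D3:**
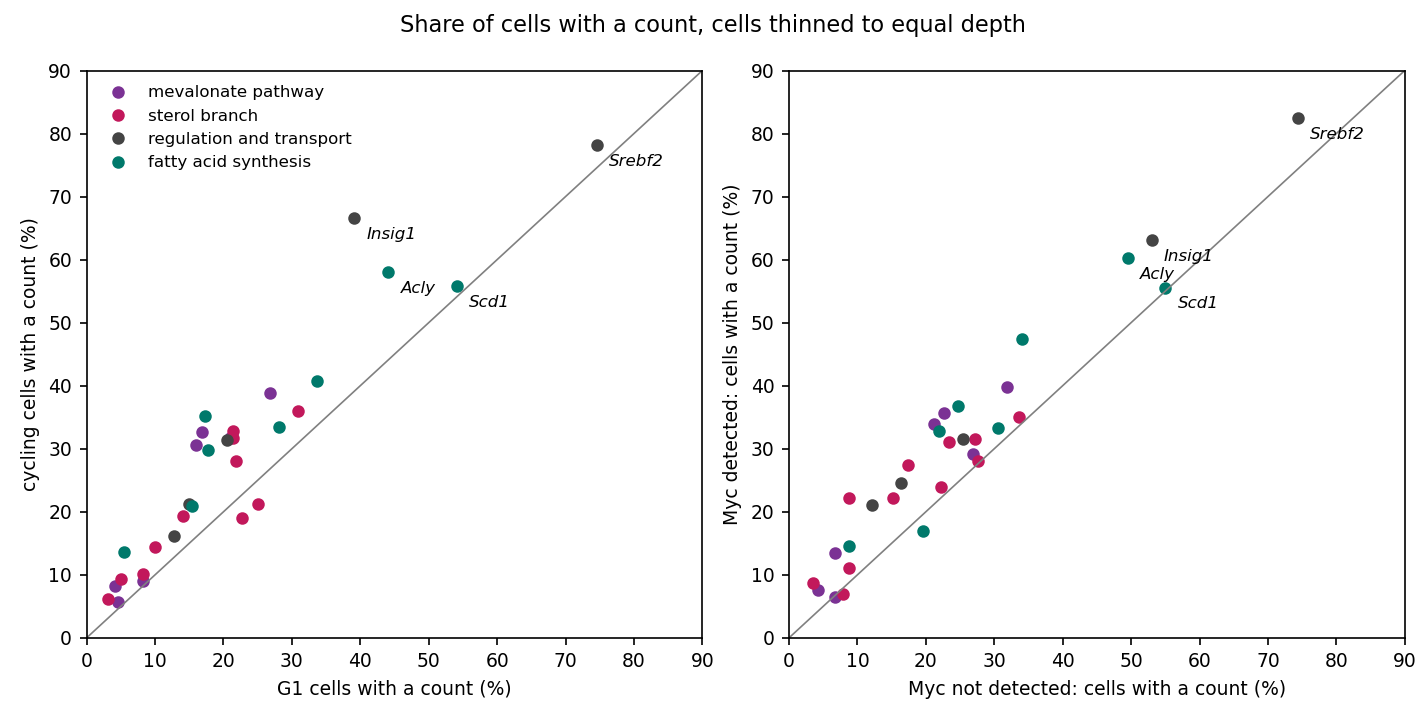
Share of cells with a count of each of the 31 genes after thinning to equal depth, for cycling against G1 cells (left) and for cells with against cells without a *Myc* count (right), coloured by role, with the line of equal shares. Most points lie above the line in both panels, *Insig1* stands farthest above it on the left at 66.6% against 39.1%, and *Scd1* lies near the line in both.

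Taking S and G2/M cells separately gave *Scd1* about the same difference in each phase, without a call in either. The log2 fold change of *Scd1* was -0.67 ± 0.21 in S (edgeR, adjusted p = 0.111) and -0.73 ± 0.21 in G2/M cells (adjusted p = 0.0646), and its level was below that of G1 cells in 7 of 8 hosts in S and in 8 of 8 in G2/M. None of the 31 synthesis genes tested was called in S against G1, where edgeR called 3.38% of all genes, in G2/M against G1, where it called 3.74%, or in G2/M against S, where it called 0.25%. At an unadjusted p below 0.05 there were 2, 1 and 0 of them, beside 12.2%, 12.6% and 6.85% of all genes, and DESeq2 called 2 lower in S, 1 lower in G2/M and 0 between G2/M and S. For *Srebf2* the difference was -0.49 ± 0.18 in S and -0.19 ± 0.18 in G2/M cells (edgeR, adjusted p = 0.199 and 0.776).

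The second comparison used *Myc*, which marks LZ cells that have received T cell help. A count of *Myc* was found in 177 cells and none in 460, and median depth was 890495 and 751578 counts. The sums of Myc-detected cells hold fewer cells, 5 to 50 a host against 36 to 83. The median log2 fold change of all 12715 genes tested was -0.42, and 70.9% lay below 0. The 30 synthesis genes tested had a median of -0.20, with 9 above 0. Without the host block both medians moved, to 0.098 for the synthesis genes, with 20 of 30 above 0, and to -0.024 for all genes, of which 51.6% lay below 0, so the direction of the synthesis genes depended on the block. The median of the synthesis genes was -0.066 without A7, -0.032 without V7 and -0.032 with thinned cells. None of the 30 was called by edgeR, and none had an unadjusted p below 0.05. Of all genes 0.0551% were called and 8.29% had such an unadjusted p, and DESeq2 called 1 synthesis gene lower. Of the light zone markers *Nfkbia* was called higher in Myc-detected cells, at 1.70 ± 0.21 (edgeR, adjusted p = 0.0236), and the summed level of the 6 was 2289 to 4281 CPM in these cells and 1679 to 2925 CPM in the others. The level of *Scd1* was 37.0 to 359 CPM in the Myc-detected cells of the hosts and 73.4 to 378 CPM in the others, lower in 5 hosts and higher in 3, with a log2 fold change of -0.35 ± 0.27 (edgeR, adjusted p = 0.760).

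The regulators spread as widely. *Srebf2* stood at 249.7 to 851 CPM in Myc-detected cells and at 379.9 to 548 CPM in the others, and was higher in 4 hosts and lower in 4, with a log2 fold change of -0.00 ± 0.17 (edgeR, adjusted p = 0.997). *Insig1* was higher in 6 of 8 hosts, at 97.4 to 380.5 CPM against 55.8 to 256 CPM, with a log2 fold change of 0.31 ± 0.30 (adjusted p = 0.810). *Srebf1* had a log2 fold change of -0.03 ± 0.49 (adjusted p = 0.991) and *Scap* of -0.16 ± 1.24 (adjusted p = 0.977). The sums of A7 and V7 hold 5 and 6 Myc-detected cells, and *Scap* was at 0 CPM in the former.

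Myc-detected cells, too, held counts of more synthesis genes. After thinning the number was 9.35 a cell against 7.41, a ratio of 1.26, beside a ratio of 1.14 for all genes, and it was higher in each of the 7 hosts with 5 or more thinned cells of both kinds. Of the 30 genes tested, 27 were found in a larger share of Myc-detected cells, against 72.3% of all genes. *Acly* was found in 60.2% of Myc-detected and 49.5% of other cells and was higher in 7 of 7 hosts, as was *Nsdhl*, a sterol dehydrogenase, at 27.5% and 17.4%. A share higher in every one of these hosts was found for 5.41% of all genes. The exceptions were *Hsd17b7*, *Scd2* and *Mvk*. *Hsd17b7* was found in 7.02% of Myc-detected and 7.96% of other cells, with a higher share in 0 of 7 hosts. *Scd2* was found in 17.0% and 19.7% and *Mvk* in 6.43% and 6.72%, with a higher share in 4 and 3 of 7 hosts. The share of *Sqle* was 28.1% in Myc-detected and 27.6% in other cells. Its summed level, a different measure, was lower in Myc-detected cells of all 8 hosts, at a mean of 82.2 against 147 CPM, without a call. How many of all genes were lower in every host was not counted. In that comparison of levels 70.9% of all genes lay below 0. In G1 cells alone the number of synthesis genes was 7.88 in 52 Myc-detected cells and 6.18 in 168 others. The ratio was 1.27, beside 1.12 for all genes. In cycling cells the numbers were 9.99 and 8.29, a ratio of 1.21, beside 1.12 for all genes. These numbers pool the cells of all hosts. Only 3 hosts in G1 and 5 in cycling cells had 5 or more thinned cells of both kinds, and the number was higher in each. The summed level of the 31 genes was 2980 ± 611 CPM in Myc-detected and 2863 ± 472 CPM in other cells (SD, n = 8).

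Among G1 cells, 4 hosts had at least 5 Myc-detected cells (A8, A10, A11 and V9). Of 10183 genes tested there edgeR called 0, or 0% of them, with 368 (3.61%) at an unadjusted p below 0.05, and DESeq2 called 1069. None of the 26 synthesis genes tested was called by edgeR or had an unadjusted p below 0.05, and DESeq2 called 1 of them lower. The median over the 26 was 0.04 and over all genes -0.44. The sign of the former rested on single hosts, with -0.23 without A11, -0.15 without V9, 0.076 without A8 and 0.080 without A10, and it was -0.0099 without the filter on low counts and -0.016 with thinned cells. Over all genes the median was -0.041 without the host block. *Scd1* was at -0.53 ± 0.43 and *Insig1* at 1.36 ± 1.23 on the log2 scale (edgeR, adjusted p = 1 for each).

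**Figure D4:**
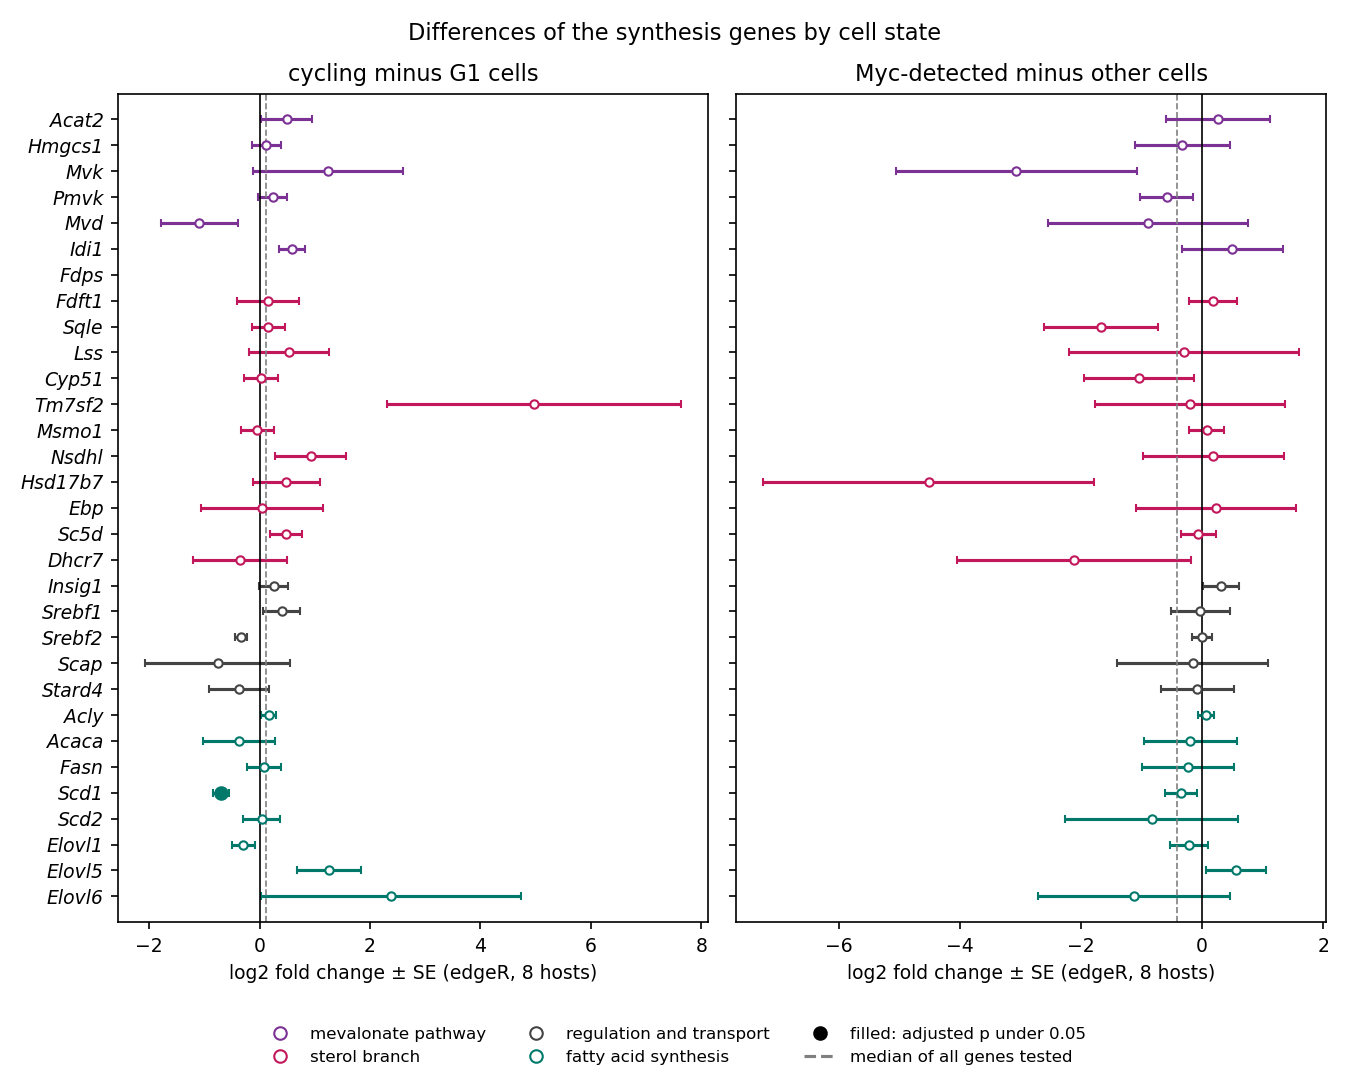
Log2 fold change with its SE of each synthesis gene between cycling and G1 cells (left) and between cells with and without a *Myc* count (right), from edgeR over 8 hosts, coloured by role, with the median of all genes tested as a dashed line. *Scd1* on the left, at -0.69 ± 0.14, is the 1 filled point, which marks an adjusted p under 0.05. *Tm7sf2* and *Elovl6*, both found in few cells, have the widest errors on the left.

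The third comparison set the 5 acalabrutinib against the 3 vehicle hosts. The sum of each acalabrutinib host pools BTKWT cells with BTKC481S cells, which resist the inhibitor. A difference confined to BTKWT cells would therefore be diluted in these sums. No gene passed the threshold: edgeR called 0 of 18016 genes (0%), with 616 at an unadjusted p below 0.05 (3.42%), and DESeq2 called 94. None of the 31 synthesis genes was called by edgeR or DESeq2, and 2, *Stard4* and *Pmvk*, had an unadjusted p below 0.05. Their median log2 fold change was -0.15, against 0.02 for all genes, and 20 of 31 lay below 0, beside 48.1% of all genes. Single hosts moved that median by more than 1.5 times: it was -0.020 without V5, with 16 of 31 below 0, -0.28 without A10 and -0.30 without V9, with 22 below 0.

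*Stard4*, named after its values were seen, was the 1 synthesis gene whose hosts did not overlap. Its level was 53.5 CPM in A7, 11.9 in A8, 34.1 in A10, 37.0 in A11 and 13.8 in A12, and 110 CPM in V5, 77.1 in V7 and 59.9 in V9. Each acalabrutinib host was below each vehicle host, and the hosts of 2.18% of all genes did not overlap in either direction. The log2 fold change was -1.48 ± 0.51 (edgeR, unadjusted p = 0.0154, adjusted p = 1). *Pmvk*, the kinase of phosphomevalonate, had -0.80 ± 0.28 (unadjusted p = 0.0167, adjusted p = 1), and its hosts overlapped, at 37.0 to 74.2 CPM with acalabrutinib and 72.4 to 106 CPM with vehicle.

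The regulators and *Scd1* overlapped between treatments. *Scd1* was at 68.7 CPM in A7, 180.5 in A8, 310.5 in A10, 148 in A11 and 215 in A12, and at 273 CPM in V5, 289 in V7 and 198 in V9. The lowest and the highest host were both acalabrutinib hosts, and the log2 fold change was -0.50 ± 0.37 (edgeR, adjusted p = 1). *Srebf2* averaged 451 ± 35.3 CPM with acalabrutinib (SD, n = 5) and 425 ± 72.8 CPM with vehicle (SD, n = 3), *Srebf1* 114 ± 19.2 and 101 ± 34.1 CPM, *Insig1* 133 ± 58.2 and 187 ± 56.2 CPM, and *Scap* 42.7 ± 24.3 and 20.5 ± 8.48 CPM. The log2 fold changes were 0.07 ± 0.16 for *Srebf2*, 0.15 ± 0.26 for *Srebf1*, -0.53 ± 0.36 for *Insig1* and 1.04 ± 0.56 for *Scap* (edgeR, adjusted p = 1 for each).

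Whether the cycling difference depended on treatment was tested as an interaction. Of 18108 genes edgeR called 0 (0%), with 548 (3.03%) at an unadjusted p below 0.05, and DESeq2 called 432, 0 of them synthesis genes. For *Scd1* the interaction was -0.08 ± 0.32 on the log2 scale and for *Srebf2* -0.30 ± 0.22 (edgeR, adjusted p = 1). The 1 synthesis gene with an unadjusted p below 0.05 was *Sqle*, the squalene epoxidase, at 1.34 ± 0.45 (unadjusted p = 0.0149, adjusted p = 1).

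Across cells the cholesterol genes were weakly correlated with each other. Spearman correlations were taken within each host over 573 thinned cells and averaged over hosts by their cells. They are descriptions, since cells of a host share their animal and plates. For the 18 genes of the mevalonate pathway and sterol branch, a gene's correlation with the mean of the other 17 had a median of 0.11, from 0.01 for *Ebp* to 0.25 for *Hmgcs1*. The median of 12621 other genes with the mean of the 18 was 0.03, and 10.2% of them were above the median of the 18. *Msmo1*, a sterol methyl oxidase, was at 0.24, *Idi1* at 0.21 and *Cyp51* at 0.20. Of the 153 pairs among the 18 genes, 122 were above 0. Over full counts of all cells after subtraction of host means, the median of the 18 was 0.08. Within hosts and over full counts it was 0.08 in G1 cells, with 22.0% of other genes above it. In cycling cells it was 0.11, with 9.56% above it. For the 8 fatty acid genes the median was 0.03, and 48.4% of other genes were above it. *Scd2* was at 0.16, *Fasn* at 0.15 and *Scd1* at 0.02. The median of the fatty acid genes was also taken in each state. Within hosts and over full counts it was 0.08 in G1 cells, with 19.7% of other genes above it. In cycling cells it was 0.01, with 64.3% above it. *Scd1* was at 0.13 in G1 and -0.0039 in cycling cells, and *Fasn* at 0.0044 and 0.18. The 8 genes ranged from 0.0044 to 0.15 in G1 and from -0.066 to 0.18 in cycling cells. These cells were not thinned, and a difference between the states was not tested.

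The strongest single pair was *Hmgcs1* with *Insig1*, at 0.23. Of cells with a count of *Hmgcs1*, 70.9% had one of *Insig1*, against 48.3% of the others. Such shares pool the cells of all hosts. Both genes were found in 139 cells, where 114 would be found if they were independent within hosts. The next were *Idi1* with *Fasn* at 0.21, with counts of *Fasn* in 40.6% of cells with and 20% of cells without *Idi1*, and *Fdps* with *Msmo1* at 0.19, with counts of *Msmo1* in 70.0% of the 30 cells with and 23.2% of cells without *Fdps*. *Insig1* correlated above 0.12 with *Msmo1*, *Fdft1*, *Cyp51*, *Fasn*, *Hsd17b7*, *Srebf2*, *Idi1*, *Sqle*, *Pmvk* and *Sc5d* as well. With *Scd1* it stood at 0.00. Over all 465 pairs of the 31 genes the median was 0.037, and over their pairs with other genes it was 0.0093. How many other genes stood above 0.12 with *Insig1* was not counted, and all pairs were taken over G1 and cycling cells together. The lowest pair was *Srebf2* with *Scap*, at -0.11. In the map of correlations, the rows of *Hmgcs1*, *Msmo1* and *Insig1* are among the darkest.

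**Figure D5:**
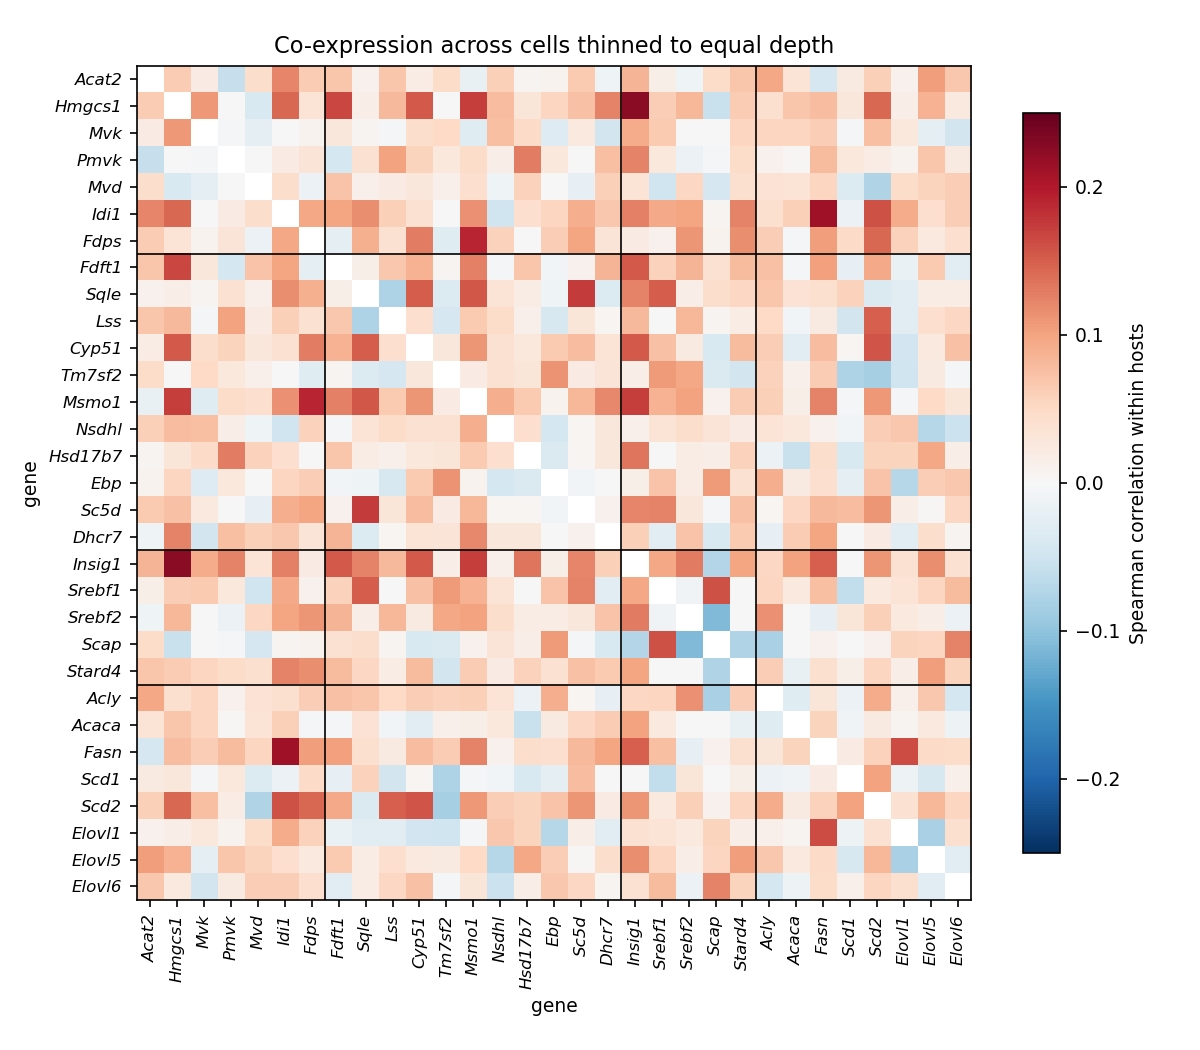
Spearman correlation of each pair of the 31 genes within hosts over 573 cells thinned to equal depth, from blue (negative) through white (0) to red (positive), with black lines between the mevalonate, sterol, regulation and fatty acid genes. The rows of *Hmgcs1*, *Msmo1* and *Insig1* are among the reddest, with *Hmgcs1* and *Insig1* the highest pair at 0.23, and the row of *Scd1* is pale.

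The 4 genes that correlated most with the other cholesterol genes were *Hmgcs1*, *Msmo1*, *Idi1* and *Cyp51*, and their promoter windows are shown for the motifs that they share. The windows are RefSeq sequence of GRCm38.p6, from 250 bases before to 50 after the annotated start, on the strand of the gene. Capitals mark CCAAT, the box bound by NF-Y, on either strand (ATTGG where it lies on the other strand) and, in *Hmgcs1*, the sterol regulatory element TCACNCCAC bound by SREBP factors. The *Hmgcs1* window is chr13:119690101-119690400 on the plus strand, *Idi1* chr13:8885356-8885655 on the plus strand, *Msmo1* chr8:64733529-64733828 on the minus strand and *Cyp51* chr5:4104648-4104947 on the minus strand.
Hmgcs1: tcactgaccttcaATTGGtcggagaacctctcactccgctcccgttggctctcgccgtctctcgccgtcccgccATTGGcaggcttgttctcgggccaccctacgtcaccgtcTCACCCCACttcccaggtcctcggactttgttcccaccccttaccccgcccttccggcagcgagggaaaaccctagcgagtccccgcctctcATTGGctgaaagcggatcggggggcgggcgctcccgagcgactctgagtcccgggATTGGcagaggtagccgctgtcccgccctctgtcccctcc
Idi1: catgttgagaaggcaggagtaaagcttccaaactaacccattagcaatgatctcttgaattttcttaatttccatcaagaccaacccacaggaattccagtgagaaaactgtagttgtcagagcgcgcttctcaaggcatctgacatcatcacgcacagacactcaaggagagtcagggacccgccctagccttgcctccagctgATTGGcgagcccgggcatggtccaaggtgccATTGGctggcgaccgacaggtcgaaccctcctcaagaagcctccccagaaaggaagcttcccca
Msmo1: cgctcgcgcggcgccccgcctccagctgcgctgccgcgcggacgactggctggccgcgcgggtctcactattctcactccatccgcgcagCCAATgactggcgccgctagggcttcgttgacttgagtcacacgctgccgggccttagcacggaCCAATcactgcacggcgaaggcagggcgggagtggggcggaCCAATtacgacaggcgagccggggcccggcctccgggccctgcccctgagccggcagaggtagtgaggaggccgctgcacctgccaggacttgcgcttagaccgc
Cyp51: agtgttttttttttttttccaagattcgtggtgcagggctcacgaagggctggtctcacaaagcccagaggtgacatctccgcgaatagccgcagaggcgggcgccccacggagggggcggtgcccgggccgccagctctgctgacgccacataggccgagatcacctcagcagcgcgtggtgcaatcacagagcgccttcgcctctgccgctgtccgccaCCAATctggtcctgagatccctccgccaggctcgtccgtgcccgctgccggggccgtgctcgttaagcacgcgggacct

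The CCAAT box was found 4 times in the window of *Hmgcs1*, 3 times in *Msmo1*, 2 times in *Idi1* and 1 time in *Cyp51*. Of the 31 genes 25 were matched to a window, and 21 of these 25 (84%) held CCAAT on either strand, as did 41.1% of the 27025 genes of the table. The sterol element TCACNCCAC, searched on both strands, was found in 1 of 25 (4%), *Hmgcs1*, where it lies 137 bases before the start, and in 1.44% of all genes. The palindrome TCACGTGA, a form also bound by SREBP factors, was found in 0 of 25 and in 1.12% of all genes. It contains the E-box CACGTG, which was found in 6 of 25 (24%), *Dhcr7*, *Elovl5*, *Hsd17b7*, *Insig1*, *Sc5d* and *Scap*, and in 8.09% of all genes. The 27025 genes were not limited to the 12651 genes tested in cycling cells, for which no share was counted. Whether the shares differ from those of expressed genes was therefore not tested. A match is a string of letters in a window and says nothing of binding in these cells.

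Further genes of the pathways were taken from lists. Of 18 other sterol genes tested 0 were called higher or lower in cycling cells, with a median of 0.27, and 0 in Myc-detected cells, with a median of -0.46. Of 18 other fatty acid genes tested in cycling cells 0 were called, with a median of 0.20, led by the desaturases *Fads2* at 4.18 ± 1.87 and *Fads1* at 2.63 ± 1.24 (edgeR, adjusted p = 0.355 and 0.394). The 7 genes of sterol efflux and the LXR response all had values below 0 in cycling cells, with a median of -0.92, led by *Cyp27a1* at -2.18 ± 0.89 and the cholesterol exporter *Abca1* at -1.64 ± 0.72 (adjusted p = 0.302 and 0.341), and 0 were called. Below 0 in that comparison were 44.3% of all genes. Of 12 genes of fatty acid oxidation 0 were called in cycling cells, with a median of 0.26. With acalabrutinib 0 genes of these 4 lists were called, with medians between -0.20 and -0.01.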

How the data were processed

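LZ GC B cells were sequenced by SMART-seq2. The authors mapped reads with STARsolo 2.7.10a (per the labels, with GRCm39 and GRCm38 named as builds) and deposited whole-number counts per gene and cell over exons and introns, with no normalization and no molecular identifiers. Reads were deduplicated by exact position, so amplified copies can count more than once, and intervals cover counting error only. The study discarded cells above 5% mitochondrial counts or below 200 genes, and all 637 cells of the matrix were within those limits, and each well held 1 sorted cell, so no doublet caller was run. Host totals were 26778559 to 114987280 counts, and the shallowest host, A7, had the fewest cells.

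Counts were summed per host and state over at least 5 cells. Phases were called with Seurat 5.3.0 (43 S and 54 G2/M genes, 41 cells within 0.05 of the cut). Sums were tested with edgeR 4.0.16 in R 4.3.3 (quasi-likelihood, TMM, filterByExpr, host as a block except for treatment, Benjamini-Hochberg adjustment over all genes, threshold 0.05). The step was also run on simulated sums without differences between hosts and with planted changes larger than that of *Scd1*. That run therefore does not bear on the host block or on changes of that size. SEs are the log2 fold change divided by the square root of F. DESeq2 1.42.0 was an alternative, with thinning, no filter, no block, other *Myc* and cycling calls, and each host left out. Because sums share a host number within a comparison of states, the host block pairs cells of the same animal. Levels are CPM of sums and within-host differences are of log2(CPM + 1). Spearman correlations after subtraction of the host mean order cells without a count by host, so ranks within hosts were added after this was seen. Full values per host are given for members called in the cycling or *Myc* comparison and for *Srebf1*, *Srebf2*, *Scap* and *Insig1*. The members and lists were chosen with earlier results of these data known. Near-identical entries had few counts (*Scd3* 1160, *Scd4* 1009 and *Acat3* 960 in all cells), and how reads shared with them were counted was not tested. The genotypes were not compared, since cell names carry none.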

Additional observations from a re-analysis of the deposited data

Results flagged for a closer look

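A host stood apart from the other 4 acalabrutinib hosts for 4 of the 31 genes, by the gap to its nearest neighbour as a share of the whole range of log2(CPM + 1) (Dixon's 95% limit for 5 values, 0.71). Of 36 groups tested, chance flags about 1 in 20. *Sqle* was at 39.4 CPM in A8 and at 119 to 185 CPM in the others, a gap of 0.713 of the range. *Cyp51* was at 57.0 CPM in A8, with 158 to 222 CPM in the others (0.746). *Fasn* was at 24.3 CPM in A7, with 73.4 to 89.1 CPM in the others (0.85). *Hsd17b7* was at 50.1 CPM in A12, with 25.2 to 28.0 CPM in the others (0.848). A8, which was low in both sterol genes, also had the fewest synthesis genes with a count, 5.42 a thinned cell against 7.24 to 9.34 in the other hosts. It had the fewest genes of any kind as well, 3318 a thinned cell against 3414 to 3883 in the other hosts.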

How the results depend on the processing

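The number of synthesis genes called in cycling cells, 1 with edgeR, was 3 with DESeq2 (1 higher, 2 lower), 0 without the filter on low counts, 0 without the host block, 0 for the cells with the most against those with the fewest counts of cell cycle genes, 1 with thinned cells and 0 to 1 with a host left out (0 without A7, A10, A12, V5, V7 or V9). The log2 fold change of *Scd1* there was -0.76 to -0.42 over 14 alternatives, with adjusted p from 7.0e-05 (DESeq2) to 0.364 (no replicate block). The mean over plates, among these alternatives, had no test. In S cells the number was 2 with DESeq2 and 0 to 1 with a host left out (1 without A8), and it was 1 with DESeq2 in G2/M, in Myc-detected and in Myc-detected G1 cells. It remained 0 for treatment, for the interaction and between G2/M and S under every alternative run. Where the host block does not apply, in the treatment comparison, no paired fit was made.

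Small, uncalled values changed sign. *Srebf1* in Myc-detected cells was 0.0075 with DESeq2, 0.054 with thinned cells, 0.071 without the block, 0.34 for *Myc* at 10 CPM or more, 0.11 for *Myc* called after thinning and -0.32 to 0.28 with a host left out. *Srebf2* there was 0.042 with DESeq2, 0.081 without the block, 0.062 at 10 CPM and -0.13 to 0.079 with a host left out. *Scap* there was 0.34 with thinned cells, 0.69 without the block, 0.48 at 10 CPM, 0.31 after thinning and -0.62 to 0.39 with a host left out, and in cycling cells it was 0.16 without the block. With treatment, *Srebf1* was -0.088 to 0.46 and *Srebf2* -0.020 to 0.21 with a host left out, *Srebf2* was -0.095 in S or G2/M cells only and *Scap* -0.43 in G1 cells only. The causes were not tested. Of 201 alternative values of the named genes, 164 kept direction and side of the threshold. Most of the 164 were of results uncalled in the main fit that stayed uncalled. *Scd1* in cycling cells, the 1 called result among the 15, kept both in 5 of 14 alternatives. Among the 164 is the mean of *Scd1* over plates, which had no test and was counted for its direction only. Depth limits genes found in few cells, and the 3 vehicle hosts and the pooling of both genotypes limit the treatment comparison.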
